A study of Mus musculus with 3 samples.

Results

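NUR77 regions that lay within 10 kb of one another are described here. Overlapping or abutting peaks of 3 replicate lists were joined into 12580 regions, of which 6721 lay on chromosomes 1 to 19, had a peak from at least 2 replicates and fell outside 2 windows of dense peaks on chromosomes 8 and 1. Of these 6721 kept regions, 1358 had another kept region at a gap of 10 kb or less and are called clustered, and the other 5363 did not. The gap runs from the end of a region to the start of the next, and regions linked by such gaps form a cluster. Positions in all 3 lists chose the clustered regions, so the number of clusters, their spacing and their replicate support are given as a description, with no test.

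The data come from chromatin immunoprecipitation followed by sequencing (ChIP-seq), which recovers the DNA bound by a protein, in C2C12 cells, a mouse myoblast line. All 3 samples form 1 group: the stable pINDUCER20b-HA-NUR77 line, in which doxycycline switches on an HA-tagged NUR77, treated with 1 µg/mL doxycycline for 18 hours and precipitated with an anti-HA antibody. The protein mapped is thus an induced, tagged copy made in addition to any NUR77 of the cells; the labels do not say whether the line is 1 clone, whether the replicates are separate cultures on separate days, or how their antibody suppliers, which differ between fields, are to be read. The series title speaks of macrophages, and no macrophage sample, uninduced culture or input library was analysed here. The deposited lists held 4468, 7756 and 10817 peaks for replicates 1, 2 and 3. Read depth is unknown, and whether depth sets these numbers was not tested.

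NUR77, encoded by Nr4a1, is an orphan nuclear receptor of the NR4A family and an immediate early gene product. As background, it can bind DNA alone at the element named NBRE, as a dimer at the element named NurRE, or together with the retinoid X receptor. In muscle it is known for its links to glucose and lipid metabolism genes, and in macrophages for restraining inflammatory genes. Binding sites of a transcription factor often lie in groups along a chromosome, for example at a promoter and at enhancers near it. A genome sequence or annotation of mm9, the build of the lists, was not used here, so genes, motifs and sequences at the clusters were not analysed.

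Most clusters were pairs. The 1358 clustered regions, 20.2% of the kept regions (95% Wilson interval 19.3 to 21.2%), formed 623 clusters. Pairs made up 530 of them (85.1%) and held 78.1% of the clustered regions. There were 79 clusters of 3 regions, 9 of 4 and 5 of 5, and 0 had 6 or more. The numbers rested on replicates 2 and 3: with a peak required from both remaining lists, 493 regions in 234 clusters were left without replicate 2, 441 in 210 without replicate 3, and 1217 in 560 without replicate 1. Clusters spanned 1151 to 22600 bp, with a median of 6086 bp. The median span was 5348 bp for pairs, 11400 bp for clusters of 3 and 20650 bp for clusters of 5. Intervals here and below cover counting error over regions or clusters only, and neighbouring regions are not independent.

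Counted in classes of whole kb, gaps of 1 to 3 kb were the most frequent. The 735 gaps inside clusters ran from 466 to 10000 bp with a median of 4617 bp, and quartiles of 2300 and 7142 bp. There were 101 neighbouring pairs per kb of gap in that class, compared with 68.3 per kb for gaps of 3 to 10 kb, 46.8 for 10 to 20 kb and 25.3 for 50 to 60 kb. The number of pairs thus fell without a step at 10 kb, where 56 pairs lay between 9 and 10 kb and 47 between 10 and 11 kb. Gaps of up to 1 kb numbered 55, all of 466 bp or more. They thus fill only part of that class, and a lower frequency than at 1 to 3 kb cannot be read from it. Few neighbouring peaks of the same list lay closer than the smallest kept gap. Outside the dense windows, gaps below 466 bp between them numbered 0, 4 and 6 in replicates 1, 2 and 3. Whether the caller's settings limit such gaps was not tested.

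**Figure D1:**
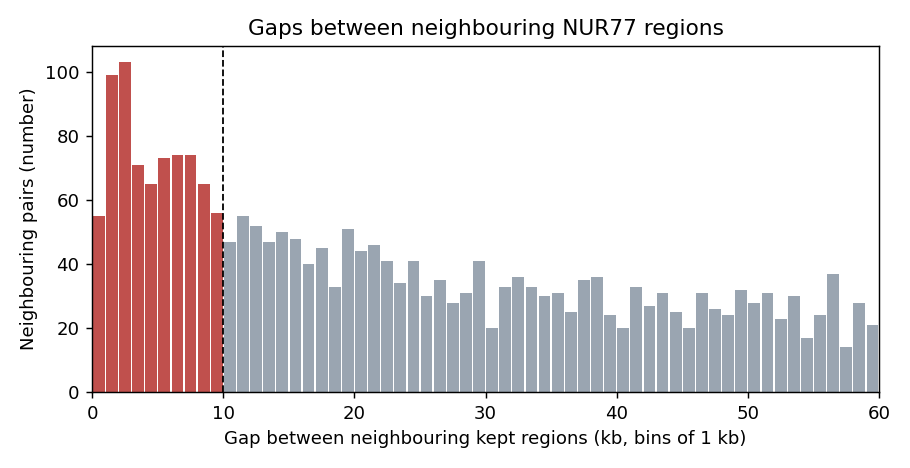
Number of neighbouring pairs of kept regions (vertical axis) for each 1 kb of gap (horizontal axis, 0 to 60 kb). Red bars are the gaps inside clusters, grey bars the wider gaps, and the dashed line marks 10 kb; the tallest bars are those from 1 to 3 kb, with 99 and 103 pairs.

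The limit of 10 kb decided how much was counted. With a limit of 2 kb, 301 regions (4.48%) were clustered, with 5 kb 755 (11.2%), with 20 kb 2145 (31.9%) and with 50 kb 3499 (52.1%). The largest cluster held 4 regions at 2 kb, 5 at 5 and 10 kb, and 9 at 20 and 50 kb. Just inside the limit stood pairs at chr10:94928028-94938877 (gap 10000 bp), chr17:74291254-74301903 (9957 bp) and chr15:39602445-39613144 (9950 bp). Just outside stood pairs at chr15:98437511-98448244 (10016 bp), chr10:80393128-80403877 (10049 bp) and chr5:65058304-65068909 (10050 bp). The second region of this chromosome 15 pair was itself clustered, with a further region 8366 bp beyond it. Of these pairs, the 3 inside had 1 region each with all 3 replicates, and of the 3 outside 1 pair had 1 such region and the others had 0. So few pairs do not show a change at the limit. Over all neighbouring pairs, a region had all 3 replicates in 54.4% of cases at gaps over 5 to 10 kb. At gaps over 10 to 50 kb the share was 52.0%, and over all kept regions 52.4%.

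The 5 clusters with 5 regions were chosen for display after their sizes were seen. They lay at chr1:85078336-85087747, chr6:125099191-125117140, chr8:129363308-129383957, chr10:93395727-93416876 and chr16:30499515-30520823. They spanned 9412, 17950, 20650, 21150 and 21309 bp. Regions with all 3 replicates numbered 5, 3, 3, 4 and 4 of 5 in the same order. The score that the caller gave each peak, quoted as the authors deposited it, differed widely inside a cluster, and percentiles below rank a peak within its own list.

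The cluster on chromosome 10 had strong and weak regions side by side. Its first region, at 93395727 to 93396277, scored 694, 972 and 1267 in replicates 1, 2 and 3. The next, 4699 bp further on at 93400977 to 93401227, had no peak in replicate 1 and scored 72.2 and 70.4 in replicates 2 and 3, close to the lowest scores in the lists. The third, at 93406973 to 93407427, scored 342, 393 and 602. The last 2 regions scored between 130 and 444 in the 3 lists. In this cluster the strong regions were strong in all 3 lists, and the weak one was near the bottom of both lists that held it.

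The cluster on chromosome 16 had its strongest region in the middle. At 30512398 to 30512873 the scores were 243, 360 and 458 in replicates 1, 2 and 3. The neighbour before it, at 30504974 to 30505264 and 7133 bp away, scored 78.4, 84.7 and 76.0. That pair differed by 76.7 points in mean score percentile, more than any other neighbouring pair within 10 kb that had all 3 replicates at both regions. On chromosome 6 the strongest region, at 125113991 to 125114538, scored 253, 475 and 573, and on chromosome 8 the region at 129383508 to 129383957 scored 163, 266 and 420. In each of these 3 clusters the region with the highest mean percentile scored lowest in replicate 1 and highest in replicate 3.

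The cluster on chromosome 1 stood apart from the other clusters of 5 in how far apart the lists' peaks lay. It ended 112253 bp before the dense window on that chromosome that the rule leaves out. Its region at 85081386 to 85081997 scored 180, 163 and 71.0 in replicates 1, 2 and 3. In 2 of its 5 regions the score was lower in replicate 3 than in replicate 1, as at 30504974 to 30505264 in the cluster on chromosome 16. This held for 42 of 737 (5.70%) of all clustered regions with 3 replicates, and for 235 of 2783 (8.44%) of the other kept regions with 3. The midpoints of the lists' peaks lay 109 to 209 bp apart within its regions, with a median of 190.5 bp, whereas the median over the 737 clustered regions was 49 bp and the 95th percentile 123 bp. In the other clusters of 5, regions with all 3 replicates had midpoints at most 104 bp apart. Of its 5 regions, 4 were wider than 500 bp, compared with 11.6% of clustered regions. The clusters of 5 on chromosomes 6 and 10 also held regions wider than that. Whether the sequence there is repeated was not tested.

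**Figure D2:**
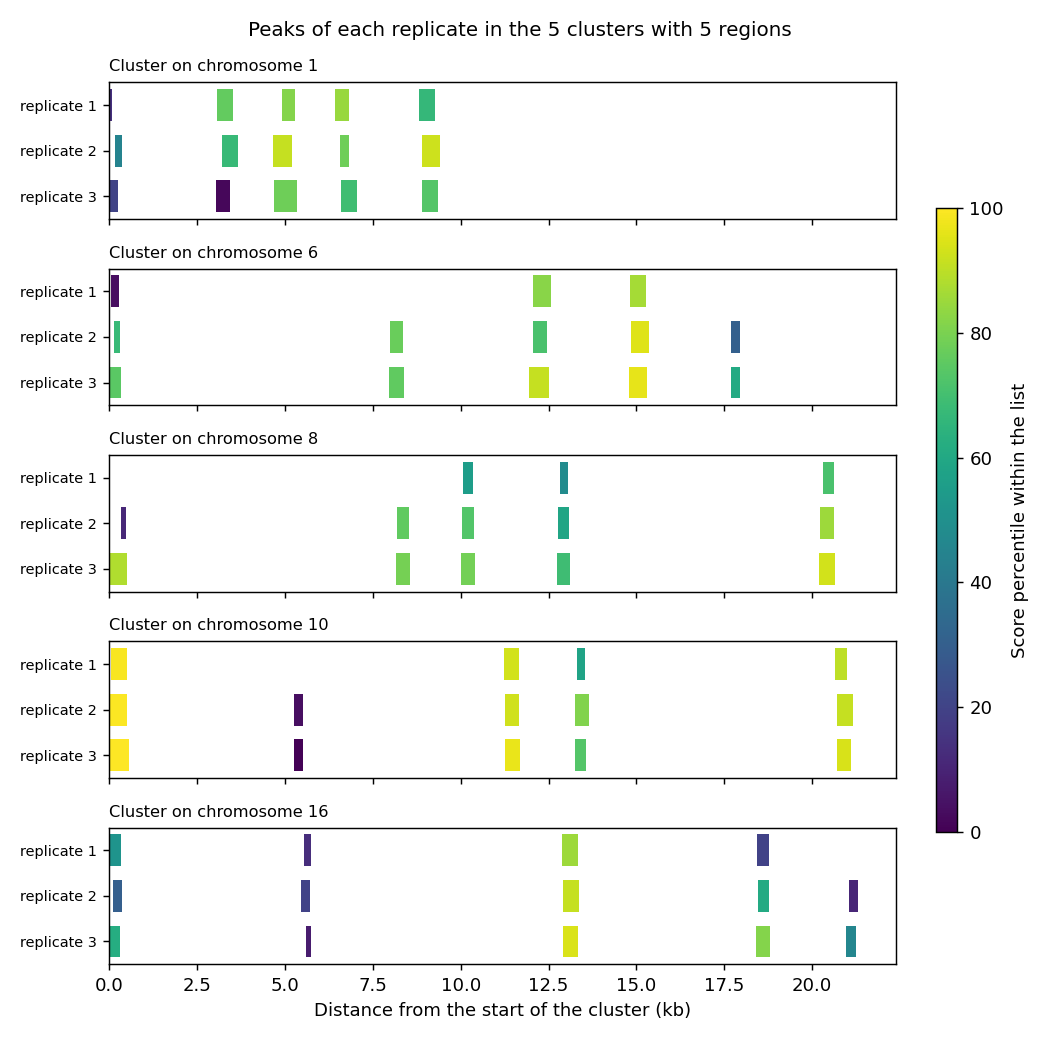
Peaks of replicates 1, 2 and 3 (rows) in each of the 5 clusters with 5 regions, by distance in kb from the start of the cluster; bars are drawn to scale, and colour gives the score percentile within the list. Within the regions on chromosome 1 the lists' midpoints lie 109 to 209 bp apart, and at most 104 bp apart in those regions of the other 4 clusters that have all 3 replicates.

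Of the 93 clusters of 3 or more regions, 12 had peaks from all 3 replicates at every region. A peak from all 3 replicates was found at 52.4% of all kept regions. Sets of other regions of like size were not counted, so the 12 do not set clusters apart. The strongest of these 12 clusters by mean percentile lay at chr1:66968686-66987085, with 3 regions and a mean score percentile of 95.9. Its first region scored 503, 582 and 1118 in replicates 1, 2 and 3, its middle region 501, 588 and 768, and its last region 243, 391 and 641. All of its regions were in the upper part of every list. The next, at chr6:126425639-126437640, had 4 regions and a mean percentile of 90.5. In it the regions at 126433339 to 126433856 and 126434939 to 126435440, 1082 bp apart, scored 475, 860 and 731 and 660, 861 and 849, whereas the last region scored 97.9, 251 and 282. The remaining named ones were at chr2:128362045-128379258, chr10:17057673-17070327 and chr14:14513907-14523356, each of 3 regions, with mean percentiles of 78.1, 77.6 and 76.0.

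Both regions had all 3 replicates in 155 of the 530 pairs. For neighbouring regions more than 10 kb apart this held in 1616 of 5967 cases (27.1%). The strongest of the 155 pairs, at chr17:21671604-21674210, had regions 1600 bp apart. They scored 689, 740 and 1135, and 507, 867 and 979, in replicates 1, 2 and 3. Here the region with the higher score changed between lists, being the first in replicates 1 and 3 and the second in replicate 2. On chr12:51069011-51071110 the regions lay 1142 bp apart and scored 538, 794 and 552, and 350, 432 and 519, so that the first was higher in every list. On chr19:5845563-5848812 (gap 2347 bp) the first region scored 212, 647 and 1006, and the second 625, 995 and 978. Pairs at chr7:126994331-126996436 and chr11:70002975-70012474 followed, with gaps of 1194 and 8300 bp. The mean percentiles of these 5 pairs ran from 94.6 to 98.9.

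The closest neighbours were at chr8:13209008-13210207, with a gap of 466 bp. The first region of that pair had peaks in replicates 1 and 3 only (86.1 and 227), and the second scored 136, 501 and 475. Gaps of 521, 548, 590 and 594 bp followed, at chr4:122712104-122713284, chr9:70089447-70090595, chr2:154563545-154564748 and chr7:119179187-119180436. Of these 5 close pairs, 1 had all 3 replicates at both regions, that on chromosome 4, with scores of 177, 236 and 268, and 80.5, 211 and 226. Among all 735 neighbouring pairs within 10 kb, 213 (29.0%) had them at both, so this count does not set the closest pairs apart. On chromosome 9 replicate 2 alone had a peak at both regions of the pair.

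Unequal neighbours could also lie close together. On chromosome 15 a weak region at 38387045 to 38387283 scored 82.4, 81.1 and 106 in replicates 1, 2 and 3. It lay 661 bp before a region at 38387945 to 38388383 that scored 375, 491 and 678, and 4050 bp after a region at 38382495 to 38382994 that scored 294, 598 and 741. The weak region was the lowest of the 3 in each list. All 3 regions carried peaks from every replicate.

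Replicate support was much alike in clustered and other regions. All 3 replicates had a peak at 737 of the 1358 clustered regions, or 54.3% (51.6 to 56.9%), at 2783 of the 5363 others, or 51.9% (50.6 to 53.2%), and at 52.4% of all kept regions. The difference was 2.38 percentage points, with a Newcombe interval of -0.60 to 5.33. With only the peaks scoring above their list's median it was -0.40 (54.0% against 54.4%). Of the clustered regions, 544 rested on replicates 2 and 3 without replicate 1, 59 lacked only replicate 2, and 18 lacked only replicate 3. Replicate 1, the shortest list, held 59.9% of the clustered regions, replicate 2 95.7% and replicate 3 98.7%. Among other regions these shares were 61.5%, 93.1% and 97.3%.

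Clusters differed in how many lists showed them. At least 2 regions of a cluster carried a peak in all 3 lists for 217 of 623 clusters (34.8%), in exactly 2 lists for 383 (61.5%) and in 1 list only for 23 (3.69%). Replicate 1 had a peak at 2 or more regions of 255 clusters (40.9%), replicate 2 of 577 (92.6%) and replicate 3 of 608 (97.6%). In 167 clusters (26.8%) every region had all 3 replicates, in 120 (19.3%) none had, and 336 (53.9%) were mixed. Taken alone, the lists had 566 of 4356 peaks (13.0%), 1703 of 7603 (22.4%) and 2976 of 10605 (28.1%) within 10 kb of another peak of the same list. These shares followed list length, and 91.0%, 73.5% and 44.6% of those peaks in replicates 1, 2 and 3 belonged to clustered regions.

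The share of neighbours that both had full replicate support lay close to the square of the share for single regions. Both regions had all 3 replicates in 213 of the 735 neighbouring pairs (29.0%), 1 region had in 371 and neither had in 151. A region of these pairs had all 3 replicates in 54.2% of cases, the square of which is 29.4%. For pairs further apart than 10 kb, both regions had all 3 replicates in 27.1%, and the square was 27.2%. Pairs with a gap of 2 kb or less had 33.8% against a square of 31.2%. The other classes lay below their squares, with 25.9% against 28.0% at over 2 to 5 kb and 28.9% against 29.6% at over 5 to 10 kb. Whether the observed and squared shares differ was not tested.

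Nor did neighbours resemble each other much in score. Across pairs within 10 kb, Spearman's rho of the score percentiles of both regions was 0.04 over the 261 pairs of replicate 1, 0.09 over the 672 of replicate 2 and 0.02 over the 716 of replicate 3. Regions of a cluster of 3 or more enter more than 1 pair, and all points of a rho share a library. Pairs further apart than 10 kb gave -0.0037, -0.0030 and -0.010 in the same order. At gaps of 2 kb or less rho was 0.02, 0.12 and 0.17, over 68, 139 and 146 pairs. It was -0.14, 0.06 and -0.10 at over 2 to 5 kb, and 0.13, 0.11 and 0.05 at over 5 to 10 kb. Thus rho did not rise steadily as gaps shortened. The strongest and weakest regions of a cluster differed by a median of 26.6 percentile points, and by more than 50 in 101 clusters (16.2%). Such differences were not particular to clusters. Neighbouring regions differed by a median of 23.6 points in mean score percentile within 10 kb, and by 23.7 points at wider gaps.

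Which neighbour scored higher was mostly the same in every list. Of the 213 pairs within 10 kb that had all 3 replicates at both regions, the same region scored higher in all 3 lists in 155 (72.8%). For pairs with wider gaps the share was 67.9% (1097 of 1616). Among the 167 clusters with all 3 replicates at every region, the same region was the strongest in all 3 lists in 115, or 68.9% (61.5 to 75.4%). The pair on chromosome 12 was one of these, and the pair on chromosome 17 was not.

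Scores of clustered regions were slightly higher than those of others in each list. In replicate 1 the median score percentile was 56.7 for clustered and 51.7 for other regions. It was 61.2 against 56.5 for replicate 2, and 70.05 against 66.83 for replicate 3. The difference averaged 4.36 ± 0.99 points (SD, n = 3 lists). All 3 lists were compared over the same regions, chosen from all 3, so this SD does not measure the uncertainty of the difference. The quartiles overlapped widely, with 30.0 to 79.4 for clustered and 26.8 to 75.2 for other regions in replicate 1. Among regions with all 3 replicates the differences were 1.75, 3.45 and 3.28 points in replicates 1, 2 and 3. Among regions with exactly 2 replicates they were -0.18, 1.70 and 4.53. Whether a peak was called at all depends on its score, so scores are not independent of the rule, and no test was made.

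The clustered share was higher among the strongest regions. It was 25.9% (22.7 to 29.3%) in the highest decile of kept regions by mean score percentile and 17.8% (15.1 to 20.9%) in the lowest. Of the 100 strongest kept regions, 29 were clustered (21.0 to 38.5%). Among the clusters, 154 (24.7%) held a region of the highest decile, 17 (2.73%) held 2 or more, and 15 (2.41%) held regions of both the highest and the lowest decile. The cluster at chr10:93395727-93416876 belongs to the latter, with mean percentiles from 2.28 to 99.4. By definition the highest decile holds 672 of the 6721 kept regions, and each cluster has 2 or more regions that could fall in it. Sets of other regions of like size were not counted, so these cluster counts do not set clusters apart. Width differed little: the median was 400 bp for clustered and other regions, and 11.6% and 10.0% were wider than 500 bp.

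**Figure D3:**
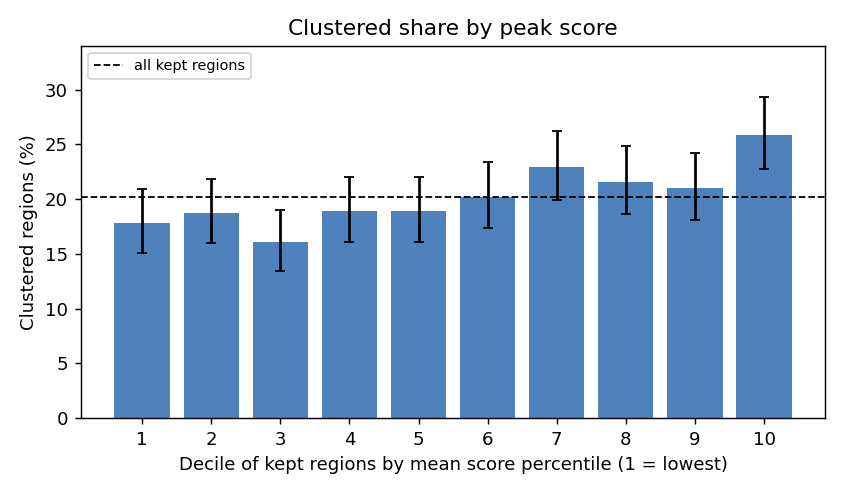
Clustered regions as a percentage of kept regions (vertical axis) in each decile of kept regions ordered by mean score percentile (horizontal axis, 1 lowest). Bars are shares with 95% Wilson intervals, and the dashed line is the share over all kept regions, 20.2%; the highest decile stands at 25.9%.

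A list that took no part in choosing the regions gave a separate look at them. Regions and clusters were defined by the same rule in 2 lists, and their overlap with a peak of the third list by at least 1 bp was counted. Replicate 1, when left out, held 57.4% of the 1217 clustered and 57.4% of the 4910 other regions, and 57.4% of all regions so defined. Replicate 2 held 92.1% (89.4 to 94.2%) of 493 clustered and 88.7% (87.6 to 89.7%) of 3457 other regions, and 89.1% of all. Replicate 3 held 97.3% (95.3 to 98.4%) of 441 and 95.4% (94.6 to 96.0%) of 3235, and 95.6% of all. The difference averaged 1.78 ± 1.72 percentage points (SD, n = 3 lists; exact sign-flip permutation test, two-sided p = 0.25). This is the smallest p that 3 lists allow, so the test could not pass 0.05, and the 3 comparisons share lists.

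The clustered regions of these 2-list sets also scored higher. Their median score percentiles were 64.6, 68.4 and 68.3 with replicates 1, 2 and 3 left out, compared with 60.3, 63.4 and 61.5 for other regions. Within quartile groups of regions of like score the differences had no common sign. With replicate 1 left out they were -0.70, -6.89, -5.16 and -1.02 points from the lowest to the highest group, with 277 to 353 clustered regions in each. With replicate 2 left out they were 0.53, 6.02, -1.51 and 0.36 points, and with replicate 3 left out 4.74, 3.32, -2.34 and -0.44.

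**Figure D4:**
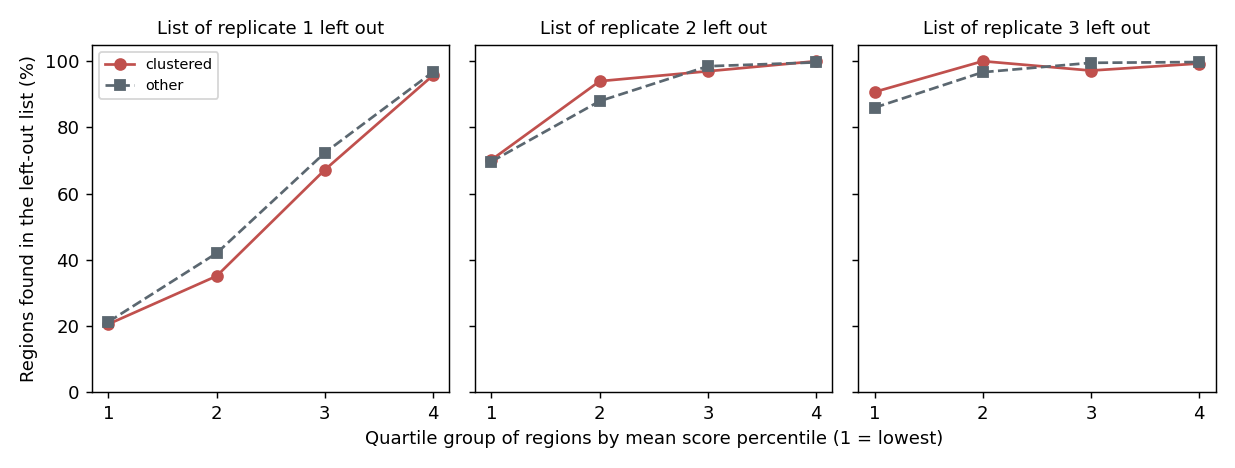
Percentage of regions defined in 2 lists that overlap a peak of the list left out (vertical axis), by quartile group of mean score percentile (horizontal axis, 1 lowest), for clustered regions (red circles) and others (grey squares). With replicate 1 left out, the lowest group stands at 20.6% for clustered and 21.3% for other regions, and the highest at 95.8% and 96.8%.

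In the left-out list too, the share of pairs found at both regions lay close to the square of the single share. With replicate 1 left out, both regions of a neighbouring pair were found in 215 of 657 pairs (32.7%), against a square of 33.3% for the single share. With replicate 2 left out it was 220 of 259 (84.9%, square 84.1%), and with replicate 3 left out 219 of 231 (94.8%, square 94.9%). The pair on chromosome 9 with a gap of 548 bp was in none of these sets. Its regions rested on different lists, with replicates 2 and 3 at one region and replicates 1 and 2 at the other.

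Regions seen in 1 replicate only were more often near clustered regions. Such regions took no part in the rule, and there were 5598 on chromosomes 1 to 19 outside the dense windows. At least 1 lay within 10 kb of 301 clustered regions, or 22.2% (20.0 to 24.5%), of 798 other regions, or 14.9% (14.0 to 15.9%), and of 16.4% of all kept regions. The difference was 7.29 percentage points (Newcombe interval 4.94 to 9.75). It had the same direction for the single regions of each list: 15.8% against 11.2% for replicate 3, 6.11% against 3.67% for replicate 2 and 1.25% against 0.69% for replicate 1. Inside 50 clusters (8.03%) such a region lay between the outer regions, 53 in all. Clustered regions lie by construction in stretches rich in regions, so this comparison is a description.

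Beyond 10 kb, clusters also had closer neighbours. The nearest kept region outside a cluster was at a median of 55.6 kb (quartiles 24.1 and 124 kb), and the nearest to any other kept region, which is also further than 10 kb by the rule, at 68.4 kb (29.8 and 158 kb). No kept region lay within 100 kb of 29.5% of clusters and of 38.5% of other regions. Clusters of 3 or more had their nearest outside neighbour at a median of 48.8 kb.

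Chromosomes differed in the share of clustered regions. Chromosome 10 had the highest, with 176 of 587 kept regions (30.0%, 26.4 to 33.8%) in 80 clusters, followed by chromosome 19 (26.5%, 54 of 204), chromosome 15 (26.0%, 101 of 388) and chromosome 8 (24.8%, 95 of 383). The Wilson intervals of these 4 overlapped. Chromosome 9 had the lowest share, 9.23% (6.28 to 13.4%), followed by chromosome 13 (10.4%, 7.13 to 14.9%). Chromosome 11 had 98 of 449 (21.8%), close to the share over all kept regions, and 2 of its 48 clusters had 3 or more regions. Chromosomes 4 and 10 each had 11 clusters of 3 or more, and chromosome 18 had 0 among 13. Across the 19 chromosomes the clustered share went with the density of kept regions (Spearman's rho 0.73, and 0.68 without chromosome 10). Both measures come from the same regions and lists, so this is a description.

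**Figure D5:**
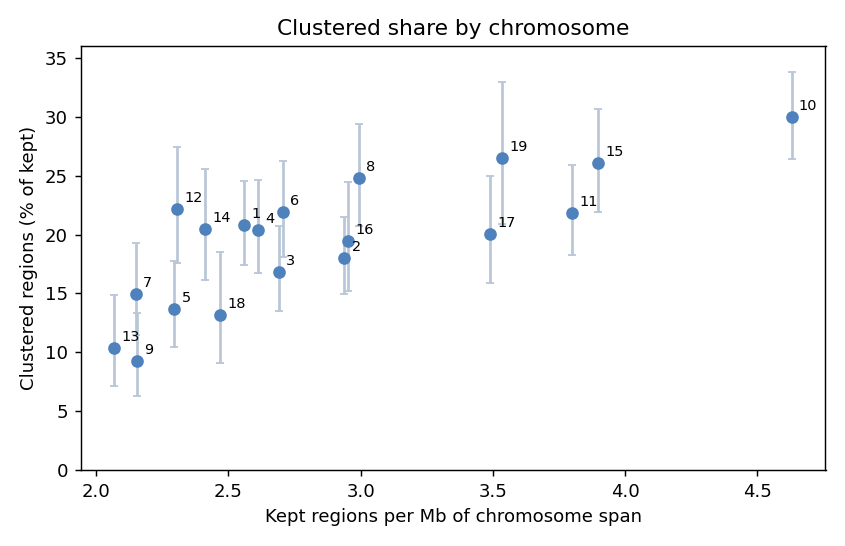
Clustered regions as a percentage of kept regions (vertical axis, with 95% Wilson intervals) against kept regions per Mb between the first and last kept region (horizontal axis), with 1 point for each of chromosomes 1 to 19. Chromosome 10 lies at the upper right with 4.63 regions per Mb and 30.0%, chromosomes 9 and 13 at the lower left.

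The list that the authors merged over the replicates covered the clusters in fragments. Each of the 1358 clustered regions contained at least 1 of its intervals, 2807 in all or 2.07 per region, and 36.3% of those intervals were shorter than 50 bp. Other regions held 2.02 intervals each, of which 35.5% were that short.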

How the data were processed

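Per the labels, each of the 3 samples is an anti-HA ChIP-seq library of induced C2C12 cells. The authors deposited a peak list per replicate, with start, end and a caller score; the statistic behind the score is not stated. Per the file contents, peak names carry the name MACS. Positions are on mm9 (build named by the submitters' processing notes). The sources used here do not give the caller's settings or control, and no read counts were used. Between 98.0% and 98.7% of peak widths were multiples of 50 bp.

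Peaks were joined and regions linked with Python 3.11.15, NumPy 2.4.6, pandas 2.3.3 and SciPy 1.17.1. Regions wholly inside chr8:19700000-20050000 or chr1:85200000-85400000 were left out (58 with at least 2 replicates), as were 86 such regions on chromosome X. bedtools 2.31.1 gave the same 1358 regions and 623 clusters. The code was tested on simulated lists. A score percentile is the rank of a region's best peak within its list; the mean percentile averages the lists with a peak. Intervals are 95% Wilson intervals.

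The members, the comparisons and the alternatives were chosen with earlier results of these data known. Named were the 5 strongest clusters of 3 or more and the 5 strongest pairs with all 3 replicates throughout, the 5 smallest gaps, the 3 pairs on either side of 10 kb and the 3 most unequal pairs. A further rule, for clusters of 6 or more, found 0. Joining, overlap, support, score, list length, the limit and each replicate were varied.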

Additional observations from a re-analysis of the deposited data

How the results depend on the processing

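Of 115 alternative values, 75 stayed within the spread between lists, the counting interval or, for counts, 1.5 times the reported count, and 0 called values reversed. The difference in regions with all 3 replicates, 2.38 points with an interval that includes 0, turned to -0.40 for peaks above the median score. The settings that left out 500 kb around the dense windows and chromosome 10 were added after seeing the data, and neither moved a value beyond those limits. Clustered regions, their share, clusters and clusters of 3 or more were 755, 11.2%, 362 and 26 with a limit of 5 kb, and 2145, 31.9%, 942 and 201 with 20 kb. They were 423, 12.02%, 201 and 17 when all 3 replicates were required, 461, 13.4%, 218 and 21 with only the peaks scoring above their list's median, and 576, 14.3%, 270 and 29 with equal numbers of best peaks. Fewer regions entered these last 3 by construction. Leaving out 1 replicate gave 441 to 1217 clustered regions, shares of 12% to 19.9%, 210 to 560 clusters and 18 to 80 clusters of 3 or more. The counts were lowest without replicate 3 (441 regions) and next without replicate 2 (493).

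The score difference of 4.36 points was positive in 14 of 14 alternatives. It was 2.71 with 20 kb, 2.70 for peaks above the median score, 3.02 with equal numbers of best peaks and 3.57 to 5.69 without 1 replicate. The difference in nearby single-replicate regions, 7.29 points, was positive in 11 of 11 alternatives, and was 3.81 with 5 kb, 2.82 for peaks above the median score and 2.604 with equal numbers of best peaks. Clustered regions lie by construction in stretches rich in regions under every alternative. The alternatives for both differences also reuse the same peaks, so neither count of positive signs is separate support. The difference in median width, 0 bp, was 20 bp with all 3 replicates required, 1 bp for peaks above the median score, 19 bp with equal numbers of best peaks and 0 to 16 bp without 1 replicate. The causes were not tested. The recovery difference kept its positive mean in the alternatives run, though the lowest list was below 0 in most of them (-1.52 for peaks above the median score). With 20 kb the mean was 0.27 points and the lowest list -1.155. No paired analysis was possible because all samples form 1 group.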
